A study of Mus musculus with 4 samples.

Results

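The genes of hepatic selenium (Se) transport and selenocysteine (Sec) synthesis were examined in liver RNA-Seq data of mice fed a Se-deficient or a Se-adequate diet. The 10 genes, chosen by symbol, were Sepp1, Scly, Sephs1, Sephs2, Pstk, Sepsecs, Trnau1ap, Secisbp2, Secisbp2l and Eefsec. Of these, 5 are listed among the 7000 genes of the deposited results: Sepp1, Sephs2, Trnau1ap, Secisbp2 and Secisbp2l. Scly, Sephs1, Pstk, Sepsecs and Eefsec are not listed under these symbols or under any synonym known to RefSeq.

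The animals were male wild-type FVB/N mice, 3 weeks old at weaning. Both groups received the same Se-deficient base diet for 6 weeks, either with 0 ppm added Se (0 Se, mice 1 and 2) or with 0.1 ppm Se added as sodium selenite (0.1 Se, mice 4 and 5). One liver RNA library was sequenced for each of these 4 mice after removal of ribosomal RNA. For each gene, the values used here are the length of its mRNA and the log2 of its mean CPM (its reads scaled to a common library total), which the authors pooled over the 4 libraries of both diets.

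Because these levels are pooled, they have no spread between mice and no value for either diet. The remaining deposited columns hold the authors' own comparison of the diets and were not used, so the question of how the diet affected these mRNAs is not analysed here. The total counts of the libraries are not known from these values, and no interval could be set on a level. The listed genes are also a selected set, since they stand in the order of the authors' p-values and the list ends before all tested genes are reached. A gene that is not listed may therefore be abundant in liver. Albumin (Alb), transthyretin (Ttr), Cps1 and Hnf4a, which define hepatocytes, are likewise not listed. All levels below are descriptions of the listed genes, without a test.

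Liver takes up dietary Se and returns it to the blood as selenoprotein P, the product of Sepp1, from which other tissues take it up. Inside the cell, Sec lyase (Scly) frees Se from Sec, and selenophosphate synthetase 2 (Sephs2) activates it to selenophosphate. Sec has no free pool for translation and is built on its own tRNA, which is first charged with serine, then phosphorylated by Pstk and converted to Sec-tRNA by Sepsecs with selenophosphate. Sec is inserted at UGA, otherwise a stop codon, when Secisbp2 binds a stem-loop in the 3′ untranslated region of the mRNA, the SECIS element, and the elongation factor Eefsec delivers the Sec-tRNA. Trnau1ap (also known as SECp43) associates with the Sec-tRNA, Secisbp2l is a paralog of Secisbp2, and Sephs1 is a paralog of Sephs2 that does not make selenophosphate from selenide.

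Sepp1 and Sephs2 are the 2 genes among the 10 that are themselves read through in-frame UGA codons, that is, they encode selenoproteins. The coding sequence around these codons is shown because the codons set these genes apart from the other members. Sequences are given 5′ to 3′ on the mRNA strand from the GENCODE vM1 annotation of NCBIM37 (mm9), and capitals mark the UGA codons, written as TGA.
Sepp1, codon 59: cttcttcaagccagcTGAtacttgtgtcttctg
Sepp1, codons 259 and 277: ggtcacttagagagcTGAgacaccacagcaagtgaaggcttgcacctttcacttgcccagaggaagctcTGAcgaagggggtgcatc
Sepp1, codons 318 to 377: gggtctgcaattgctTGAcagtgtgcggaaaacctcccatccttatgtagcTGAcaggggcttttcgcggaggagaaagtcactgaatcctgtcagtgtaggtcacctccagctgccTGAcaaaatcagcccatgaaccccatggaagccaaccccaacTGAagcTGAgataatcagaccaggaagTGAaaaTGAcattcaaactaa
Sephs2, codon 63: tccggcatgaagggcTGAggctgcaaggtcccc

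Sepp1 lies on chromosome 15 of mm9 from 3218547 to 3230508 on the plus strand, with 5 exons. Its coding sequence of 380 codons holds 10 UGA-Sec codons, at codons 59, 259, 277, 318, 330, 352, 366, 368, 375 and 377. The first lies in exon 2, at chr15:3224848-3224850, 359 bases upstream of the last exon junction of the mRNA. The other 9 lie in exon 5, the last exon, from 3229342 to 3229698 of the chromosome, so no exon junction follows them. The last printed stretch of Sepp1 runs to the end of the coding sequence and holds 7 of the 10 codons, ending at a TAA stop codon.

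Sephs2 lies on chromosome 7 from 134416075 to 134417433 on the minus strand. It is annotated there as 1 exon of 1359 bases, all of it coding, and the untranslated parts are not in this model. Its mRNA in the deposited results is 2179 bases long. The single UGA-Sec codon is codon 63 of 452, at chr7:134417245-134417247, and the coding sequence ends with a TGA stop codon. No exon junction follows either of these TGA codons in the annotated model. In the map of UGA-Sec codons, the codon of Sephs2 sits near the start of the coding sequence, as does the first codon of Sepp1.

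**Figure D1:**
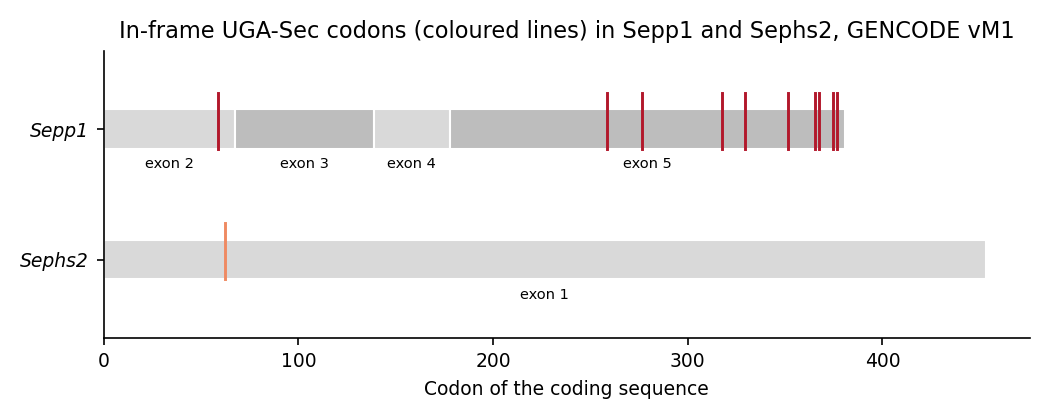
UGA-Sec codons along the coding sequences of Sepp1 and Sephs2, with the codon number on the horizontal axis, exons as alternating grey blocks and each UGA-Sec codon as a coloured line. Sepp1 has 1 codon in exon 2 and 9 in exon 5, and Sephs2 has 1 at codon 63 of 452.

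The paralog Sephs1 is aligned to Sephs2 over 391 residues, of which 294 (75.2%) are identical. At the place of the Sec codon of Sephs2, Sephs1 has the threonine codon ACA as its codon 29, shown in capitals.
Sephs1, codon 29: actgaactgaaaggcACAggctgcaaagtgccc
The mRNA of Sephs1 thus has no UGA-Sec codon at this place, and it is not listed. Secisbp2 and Secisbp2l are less alike, with 306 of 820 aligned residues (37.3%) identical. Although these genes are paralogs, none of the 50-base windows of the 10 annotated mRNA models aligned, with up to 2 mismatches, to another gene. The comparison was with the longest mRNA of each other protein-coding gene of the annotation. Pseudogenes were not searched. For Sephs2 the model holds 1359 coding bases only, so its untranslated parts were not searched.

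The listed members spanned a wide range of mRNA levels, with Sepp1 and Sephs2 far above the other 3. On the scale of mean CPM per kilobase of mRNA, which allows genes of different length to be compared, the level was 2601 for Sepp1 and 519 for Sephs2. It was 14.7 for Secisbp2l, 12.6 for Trnau1ap and 5.04 for Secisbp2. The median of all 7000 listed genes was 6.19 CPM per kilobase, or 2.63 on the log2 scale, with log2 quartiles of 1.06 and 4.17. Thus 4 of the 5 listed members lay above that median and Secisbp2 below it, and the median of the 5 members was 14.7 CPM per kilobase. In the plot of levels among all listed genes, Sepp1 and Sephs2 sit on the steep upper end of the curve and the other 3 on its flat middle stretch. Liver was sequenced as whole tissue, so fewer cells of a type and less RNA per cell cannot be told apart in any of these levels.

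**Figure D2:**
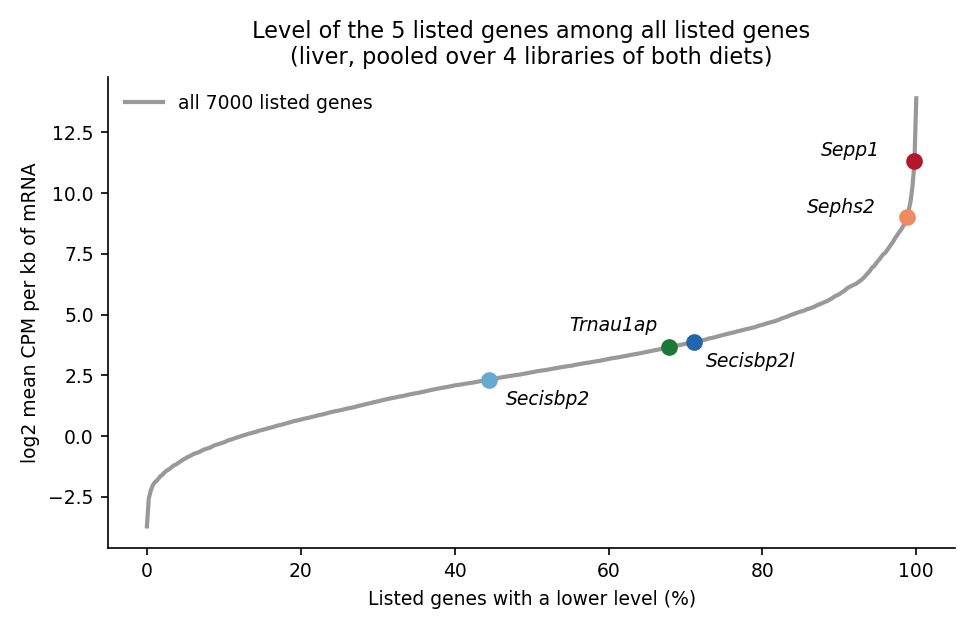
The log2 mean CPM per kilobase of mRNA (vertical axis) against the percentage of listed genes with a lower level (horizontal axis); the grey line is all 7000 listed genes and the points are the 5 listed members. Sepp1 lies above 99.8% and Sephs2 above 98.8% of the listed genes, and Secisbp2 above 44.5%.

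Scly, the enzyme that recovers Se from Sec, lies on chromosome 1 from 93194915 to 93217652 and has 12 exons, and Sephs1 lies on chromosome 2 from 4802610 to 4831603 and has 9. Neither has a level here. Sepp1, the Se transport gene (Selenop in current naming), had a mean of 5452 CPM over the 4 libraries (log2, 12.41) on an mRNA of 2096 bases. It ranked 17 of 7000 in level per kilobase and 19 in CPM, and its level per kilobase was 420 times the median of the listed genes. The genes next to it in level include classic hepatocyte genes. Just above it were Car3, a carbonic anhydrase, at 2890 CPM per kilobase, and Hpx, the plasma heme carrier hemopexin, at 2711. Just below it were Fga, a chain of fibrinogen, at 2591, B2m, the light chain of MHC class I, at 2146, and Scp2, a sterol carrier protein, at 2144. Sepp1 and Fga differed by 0.01 on the log2 scale, and Sepp1 and Hpx by 0.06. Without a spread between mice, the order within this group cannot be fixed.

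Sephs2, which makes the selenophosphate used for Sec synthesis, was the second most abundant member. It had a mean of 1131 CPM (log2, 10.14) and ranked 87 in level per kilobase, at 83.8 times the median of the listed genes. The closest listed gene in level was Rplp1, a protein of the large ribosomal subunit, at 524 CPM per kilobase. The level of Sepp1 per kilobase was 5.01 times that of Sephs2. Sephs2 in turn stood 35.3 times above Secisbp2l, 41.2 times above Trnau1ap and 103 times above Secisbp2 on the same scale. In CPM, not divided by length, these ratios were 11.3, 79.4 and 77.1 in the same order. The mRNA of the selenophosphate synthetase was therefore nearer in level to that of the transport protein than to those of the listed tRNA and decoding factors.

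Neither Pstk nor Sepsecs, the enzymes that act on the charged tRNA, is listed. Pstk lies on chromosome 7 from 138514655 to 138531353 and Sepsecs on chromosome 5 from 53031326 to 53060968. Trnau1ap, on chromosome 4 from 131867678 to 131885453 on the minus strand, is the listed member tied to the Sec-tRNA. Its mRNA of 1130 bases in 9 exons is the shortest of the 5. It had a mean of 14.2 CPM (log2, 3.83), which is 2.03 times the median of the listed genes per kilobase, and 67.9% of the listed genes were lower. The nearest gene in level was Trappc11, a subunit of a vesicle tethering complex, at 12.6 CPM per kilobase.

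Of the decoding factors, Secisbp2 and Secisbp2l are listed and Eefsec, on chromosome 6 from 88207328 to 88396533, is not. Secisbp2l is grouped with them as the paralog of Secisbp2, and its part in decoding was not tested. Secisbp2 lies on chromosome 13 from 51747066 to 51779413 on the plus strand, with 17 exons. It had a mean of 14.7 CPM (log2, 3.88) on an mRNA of 2913 bases, 0.813 times the median of the listed genes per kilobase. Secisbp2l lies on chromosome 2 from 125562722 to 125608606 on the minus strand, with 18 exons. Its mean was 99.9 CPM (log2, 6.64) on an mRNA of 6797 bases, of which 3279 are 3′ untranslated, and its level was 2.37 times the median per kilobase. The paralog thus had a mean 6.81 times that of Secisbp2 in CPM and 2.92 times in CPM per kilobase. Their nearest listed genes were Luzp1, a leucine zipper protein, at 5.04 CPM per kilobase for Secisbp2 and the histone gene Hist1h4m at 14.7 for Secisbp2l.

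Dividing by mRNA length mattered most for the longest and the shortest of the 5 mRNAs. Secisbp2l was above 86.7% of the listed genes in CPM and above 71.1% per kilobase. Trnau1ap moved the other way, from 42.5% in CPM to 67.9% per kilobase. Trnau1ap and Secisbp2 changed places, since the level of Trnau1ap was 0.971 times that of Secisbp2 in CPM and 2.50 times per kilobase. Secisbp2l and Trnau1ap, which differed 7.02 times in CPM, differed 1.17 times per kilobase. In the plot of positions on both scales, the lines of Sepp1, Sephs2 and Secisbp2 are nearly level. The remaining 2 lines converge.

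**Figure D3:**
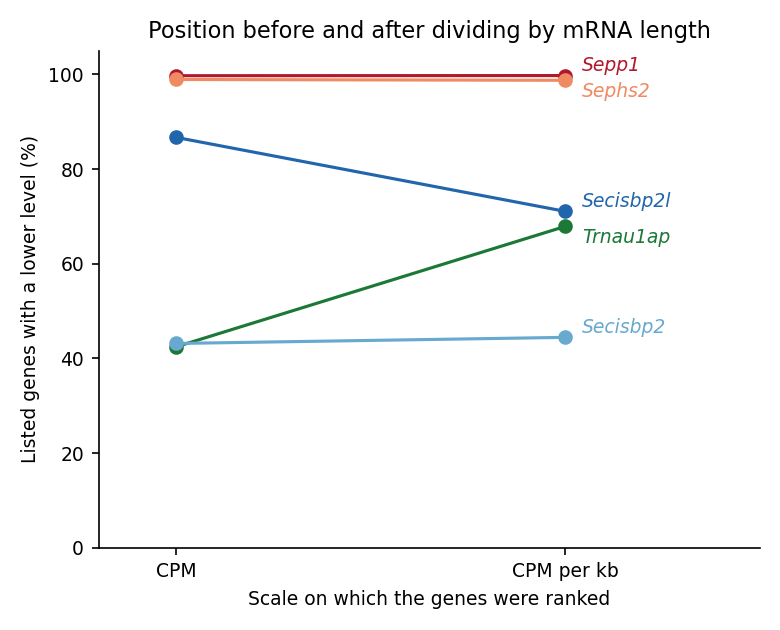
Percentage of listed genes with a lower level (vertical axis) for each of the 5 listed members, with genes ranked by CPM (left) or by CPM per kilobase of mRNA (right). Secisbp2l falls from 86.7% to 71.1% and Trnau1ap rises from 42.5% to 67.9%, while Sepp1 stays at 99.7% and 99.8%.

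Several members serve Sec synthesis or the decoding of selenoprotein mRNAs. The levels of the listed members were therefore set beside those of the selenoprotein genes. Of 24 selenoprotein genes, Sepp1 and Sephs2 included, 17 are listed, with a median of 49.6 CPM per kilobase and a range from 0.350 to 2601. In this list 14 of the 17 lay above the median of all listed genes. Sepp1 ranked first. Gpx1, the cytosolic glutathione peroxidase, was second at 797 CPM per kilobase, and Sephs2 was the third. These ranks, and the counts and shares that follow, hold for levels pooled over both diets. Selenoprotein mRNAs are known to respond unequally to Se supply, so the order within either diet may differ and was not analysed here. Sepx1, a methionine sulfoxide reductase, followed at 286, Gpx4, the phospholipid hydroperoxide glutathione peroxidase, at 249, and Sep15, a protein of the endoplasmic reticulum that is entered under a date in the deposited list, at 125.

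The next selenoproteins were Dio1, the deiodinase that activates thyroid hormone in liver, at 73.7 CPM per kilobase, Sels at 53.5, Selk at 49.6 and Selt at 42.1. These last 3 encode membrane proteins of the endoplasmic reticulum. Sepw1 had 28.4 CPM per kilobase, the cytosolic thioredoxin reductase Txnrd1 26.9, Seli 14.9 and the mitochondrial thioredoxin reductase Txnrd2 6.90. Selh at 5.18, Txnrd3 at 2.91 and Sepn1 at 0.350 lay below the median of the listed genes. Gpx2, Gpx3, Dio2, Dio3, Selm, Selo and Selv are not listed. In the plot of selenoprotein mRNAs and decoding factors, Secisbp2l and Trnau1ap fall between Seli and Txnrd2, and Secisbp2 falls between Selh and Txnrd3. In these pooled levels, 13 of the 17 selenoprotein mRNAs were higher per kilobase than each of the 3 listed factors, which need not hold within each diet.

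**Figure D4:**
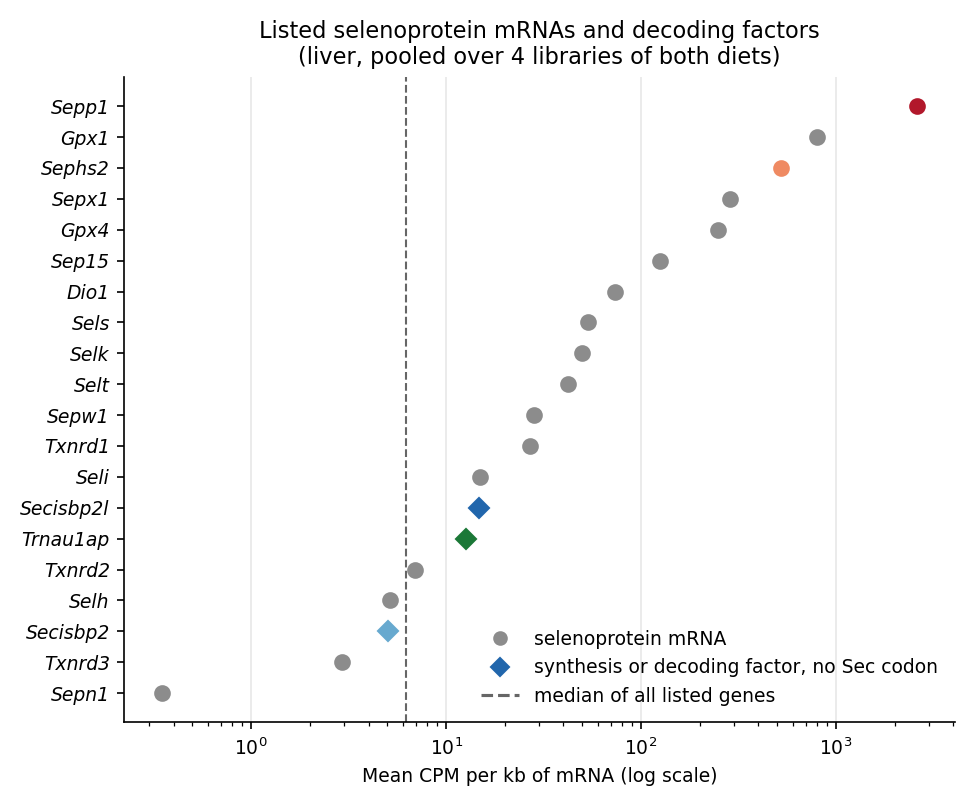
Mean CPM per kilobase of mRNA on a log scale for the 17 listed selenoprotein genes (circles, with Sepp1 and Sephs2 coloured) and the 3 listed members without a Sec codon (diamonds); the dashed line is the median of all listed genes, 6.19. The circles run from 0.350 for Sepn1 to 2601 for Sepp1, and the diamonds from 5.04 to 14.7.

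Sepp1 alone made up 53.3% of the summed level of the 17 mRNAs, 4883 CPM per kilobase, and stood at 1.14 times the sum of the other 16. Gpx1 made up 16.3% and Sephs2 10.6%. The 17 mRNAs hold 26 UGA-Sec codons in the annotation, 10 in Sepp1 and 1 in each of the others. When each level was multiplied by its number of codons, the share of Sepp1 was 91.9%, that of Gpx1 2.82% and that of Sephs2 1.83%. This product counts UGA-Sec codons present in full-length mRNA. It is no measure of translation, since ribosomes may end at any of these codons, and the 7 unlisted genes are not in the sums. In CPM without division by length, a scaling added after the data had been seen, the share of Sepp1 was 62.4% of the summed level and 94.3% of the codon-weighted level.

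The summed level of the 17 selenoprotein mRNAs was set against the listed members without a Sec codon. Per kilobase it was 387 times that of Trnau1ap, 969 times that of Secisbp2 and 332 times that of Secisbp2l. Pstk, Sepsecs and Eefsec have no level here, and ratios in CPM were not computed. Without Sepp1 the sum fell to 2282 CPM per kilobase. These are ratios of mRNA levels, and protein amounts were not measured.

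Genes that work beside the members were taken from a list of 19 partners, of which 7 are listed, at a median of 15.1 CPM per kilobase and with 6 above the median of all listed genes. Of 3 receptors of the low-density lipoprotein receptor family, Lrp1 is listed at 56.9 CPM per kilobase. Lrp8 and Lrp2, the receptors known for uptake of selenoprotein P in other tissues, are not listed. Sars, which charges the Sec-tRNA with serine, had 17.0 CPM per kilobase, and the tRNA methyltransferase Ftsj1 5.64. Per kilobase, Sars was thus close to Trnau1ap and Secisbp2l in level, and Ftsj1 was close to Secisbp2. In CPM, Sars had 63.1, against 14.2 for Trnau1ap and 99.9 for Secisbp2l. Ftsj1 had 19.3 CPM, against 14.7 for Secisbp2.

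Among proteins that bind selenoprotein mRNAs or affect their export, Eif4a3, a component of the exon junction complex that can also bind SECIS elements, had 23.9 CPM per kilobase. Celf1 had 13.9 and the nuclear export receptor Xpo1 13.7. Gspt1, the release factor that acts with Etf1 at stop codons, had 15.1 CPM per kilobase. Per kilobase, each of these 4 pooled levels was above those of Secisbp2 and Trnau1ap, while Celf1 and Xpo1 were below Secisbp2l. Sars2, Trit1, Alkbh8, Trub1, Rpl30, Ncl, Elavl1, Etf1, Eef1a1 and Eef2 are not listed.

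Genes of Se and sulfur amino acid metabolism mostly had higher levels per kilobase than the listed tRNA and decoding factors. Selenbp2 was above Secisbp2 but below Trnau1ap and Secisbp2l. In CPM, Glrx (96.7) was also below Secisbp2l (99.9). Of 13 such genes 8 are listed, all above the median of the listed genes, with a median of 97.6 CPM per kilobase. Gnmt, glycine N-methyltransferase, had 793 CPM per kilobase and Ahcy, which hydrolyzes S-adenosylhomocysteine, 646, both higher than Sephs2. Cbs and Cth, the enzymes of transsulfuration, had 131 and 59.2. Txn1 (thioredoxin) had 180, Glrx (glutaredoxin) 72.8 and Gsr (glutathione reductase), which keeps glutathione reduced, 37.7. Selenbp2, a Se-binding protein, was lowest at 8.78 CPM per kilobase. Mat1a, Inmt, Tpmt, Selenbp1 and Prdx6 are not listed.

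Marker genes of liver cell types were looked up among the listed genes. Because the list is a selected set, a marker missing from it does not show that its cells were missing. Of 7 hepatocyte markers 3 are listed and very abundant, Apoa1 at 7619, Cyp2e1 at 4180 and Serpina1c at 1290 CPM per kilobase, so the level of Sepp1 fell within their range. All 5 Kupffer cell markers are listed, from 5.15 to 74.8 CPM per kilobase. All 4 stellate cell markers are listed as well, from 1.67 to 98.3, and 3 of 4 markers of sinusoidal endothelial cells, from 15.1 to 76.9. The erythroid gene Alas2 stood at 19.1 and the leukocyte gene Ptprc at 3.93, while none of the 4 cholangiocyte markers is listed. Of these non-hepatocyte markers, the lowest (Des) was above 20.8% of the listed genes and the highest (Dcn) above 93.5%. The levels of Secisbp2, Trnau1ap and Secisbp2l lay within this wide range. So did the median of all listed genes, and the range therefore does not set these 3 mRNAs apart. Sephs2, at 519 CPM per kilobase, lay above the range of the non-hepatocyte markers and below the 3 listed hepatocyte markers. Which cells held the mRNAs of the 5 listed members was not tested.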

How the data were processed

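Liver RNA of 2 mice per diet was depleted of ribosomal RNA with Ribo-Zero and sequenced on an Illumina HiSeq in single-end runs of 50 cycles from stranded libraries. Reads were aligned by the authors with Bowtie to RefSeq mRNAs of mm9, the longest isoform per gene, keeping unique alignments with up to 2 mismatches. The deposited log2 mean CPM was made by the authors with edgeR over all 4 libraries, for genes above 1 CPM in at least 3 samples. Their versions, and the scaling of the libraries, were not given in the sources used here. Other deposited columns hold the authors' log2 fold change, p-value and FDR for the diets. These were not used, except that their order was checked to learn that the list is sorted by p-value and incomplete. With 0 columns for a single mouse, depth, spread, similarity of replicates and a diet comparison could not be obtained, and the planned test of counts was not run.

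CPM was taken as 2 to the power of the deposited log2 value and divided by the listed mRNA length in kilobases. Selenocysteine codons, coordinates and sequences came from GENCODE vM1 on NCBIM37. Proteins were translated from it and aligned globally with Biopython 1.88. The level per kilobase, the percentage of lower genes and the window search were tested on simulated data. The codon positions, codon-weighted shares and protein alignments were not tested in this way. Named genes are all members, genes of the selenoprotein, partner, metabolism and marker lists, the 3 listed genes on either side of Sepp1 and the 1 nearest to each other listed member in level per kilobase; 1 gene of this rule is not reported here. The members and lists were chosen with earlier results of these data known. Alternatives were CPM without length, a reference of genes with at least 5 CPM, and the GENCODE length for the member alone. Python 3.11.15, numpy 2.4.6, pandas 2.3.3 and matplotlib 3.10.9 were used.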

Additional observations from a re-analysis of the deposited data

How the results depend on the processing

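The percentage of listed genes with a lower level per kilobase was recomputed for each listed member. With CPM not divided by length it was 99.7286 for Sepp1, 98.9286 for Sephs2, 86.6857 for Secisbp2l, 42.4857 for Trnau1ap and 43.1714 for Secisbp2, and 3 instead of 4 members lay above the median. Against the 5569 listed genes with at least 5 CPM, whose median was 9.13 CPM per kilobase, it was 99.6947, 98.4378, 63.638, 59.6516 and 30.4723 in the same order, and 4 lay above the median. The GENCODE length was also used for the member alone, with the listed lengths kept for the other genes. The percentage was then 99.7714 for Sepp1, 99.2857 for Sephs2, whose model holds only coding sequence, and 41.0286 for Secisbp2. Secisbp2l and Trnau1ap have the same length in both. No paired analysis was possible because the deposited values are pooled over mice; for the same reason no mouse was left out and no other normalization was run. A pooled level carries no depth, so the precision of these percentages is unknown.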
